A study of Homo sapiens with 2 samples.

Results

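The RIG-I-like receptors and the proteins that pass on their signal were followed in Huh-7 cells, a human hepatoma line, after exposure to interferon-alpha. The 8 genes were taken by name, with every probe set annotated to only 1 of them: the RNA receptors RIGI (formerly DDX58), IFIH1 (MDA5) and DHX58 (LGP2), the adaptor MAVS, the kinases TBK1 and IKBKE, and the scaffold proteins TANK and TRAF3. They are 8 of the 19775 genes with a probe set of their own on the Affymetrix expression array, and they were read by 20 probe sets. The treated culture had been given fresh medium with 100 U/mL of recombinant human interferon-alpha 2b for 6 hours, and the untreated culture had only its medium exchanged, each after a 24 hour incubation. Each condition is 1 culture of 1 cell line on 1 array, so the differences below have no replicate check and carry no test or p-value.

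RIG-I-like receptors are cytosolic helicases that bind viral double-stranded RNA. RIGI prefers short RNA with a triphosphate end and IFIH1 prefers long duplexes. Both carry caspase recruitment domains, through which they switch on MAVS on the surface of mitochondria. MAVS then gathers TRAF ubiquitin ligases, and the kinases TBK1 and IKBKE phosphorylate the transcription factor IRF3, which starts production of interferon. Secreted interferon acts back on the cell through its receptor, and the signal reaches genes that carry interferon-stimulated response elements. The axis is therefore both upstream and downstream of interferon. Huh-7 cells and their sublines are widely used hosts for hepatitis C virus, a virus whose protease cleaves MAVS.

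The stretches shown first lie before the transcript starts of the receptor genes that were higher with interferon. They were picked because these genes were higher, and whether they take part in the response was not tested. Promoter windows, from 250 bases before to 50 bases after the transcript start, were taken from RefSeq on GRCh38.p14, and 7 of the 8 genes matched, with 8 windows in all because TANK has 2. DHX58 was not matched. The core of the response element was searched as GAAANNGAAA on both strands. The window of IFIH1 held 3 matches, one on the gene's strand at 21 bases before the start and an overlapping pair on the opposite strand at 159 and 153 bases before it. The windows of RIGI, MAVS, TBK1, IKBKE, TANK and TRAF3 held none. Of all 35116 windows in the table, 3.57% held at least 1 match. A variant with a shorter spacer, GAAANGAAA, was added after the RIGI window had been read. It had 1 match in RIGI, at 203 bases before the start, none in the other members' windows, and a match in 3.12% of all windows. TTCNNNGAA, the core of the gamma-activated site, matched in none of the 8 windows and in 7.66% of all windows. A match describes the letters and is not evidence that a factor binds there. Both stretches below are on the minus strand, read 5′ to 3′, and lie wholly before the transcript start, at chr2:162318685-162318853 for IFIH1 and chr9:32526331-32526429 for RIGI, with the matches in capitals.
IFIH1: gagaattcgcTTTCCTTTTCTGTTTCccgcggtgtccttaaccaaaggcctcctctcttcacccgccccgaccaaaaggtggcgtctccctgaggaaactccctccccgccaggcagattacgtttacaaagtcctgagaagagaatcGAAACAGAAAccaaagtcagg
RIGI: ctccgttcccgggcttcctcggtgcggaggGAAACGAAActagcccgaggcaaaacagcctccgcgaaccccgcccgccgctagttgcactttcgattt

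**Figure D1:**
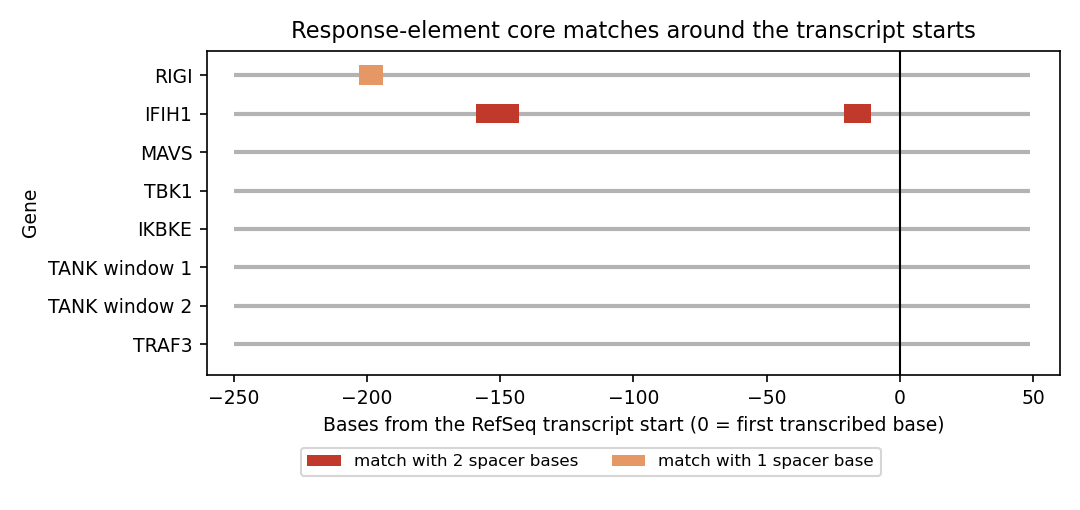
Positions of the core matches in the 8 RefSeq windows of 7 genes; the x axis is the distance in bases from the transcript start and each grey line is a window. Matches with 2 spacer bases lie only in the IFIH1 window, and the match with 1 spacer base lies in the RIGI window.

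The values are the intensities deposited by the authors, 1 per probe set and array, on a linear scale in arbitrary units. An intensity was treated as measured when it exceeded a floor of 48.46, the 50th percentile of all values on both arrays, and lower values were raised to the floor before the log2 was taken. A probe set above the floor on at least 1 array was counted. Of the members' 20 probe sets 17 were counted, 14 of them being above the floor on both arrays. Where a gene had several probe sets, its ratio was taken from the one whose log2 intensities averaged highest across the arrays, and all 8 members were counted. The treated array carried the mark of interferon, with intensities for ISG15 of 8332 with interferon and 351.2 untreated. The hepatocyte identity of the line could be read from ALB, APOB, AFP, TTR, SERPINA1, TF and FGB, all of which lay between 3223 and 14588 with interferon and between 2999.9 and 12212 untreated. An eighth marker, HNF4A, was not analysed here. Of 8 markers of leukocytes, endothelium and fibroblasts, 3 were below the floor on both arrays, PTPRC, CD3E and ACTA2. The other 5, CD79A, CD14, PECAM1, VWF and COL1A1, were above the floor on both arrays. All 8 lay between 17.0 and 186.6 with interferon and between 19.2 and 176.3 untreated. Their summed intensity was 620.4 with interferon and 666.6 untreated. Whether the signal of the 5 above the floor was transcript or background was not tested. In RNA from whole cultures, the number of responding cells and the amount of transcript per cell cannot be told apart.

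Among the 8 genes, interferon-treated cells had at least 2-fold more signal for the receptors RIGI and IFIH1, and the third receptor, the adaptor, both kinases and both scaffolds stayed under 2-fold. The 2 of 8 genes (25%) stand beside 0.43% of the 13269 counted genes that were at least 2-fold higher. The members were chosen with earlier results of these data known, so this share is only descriptive. IFIH1 was counted only through the interferon array, so it had to be higher. No member was at least 2-fold lower, and neither was any counted gene (0%). At the level of probe sets, 4 of 17 counted ones (23.5%) were at least 2-fold higher, against 0.364% of the 23871 counted probe sets with 1 named gene, and these 4 belonged to RIGI and IFIH1. Of the 4, 3 had an untreated value under the floor and were counted only through the interferon array, so they had to be higher. Of the members' 14 probe sets that exceeded the floor on both arrays, 1 was at least 2-fold higher, the RIGI probe set 242961_x_at, beside 0.26% of 22682 such probe sets with 1 named gene. The median log2 ratio of the 8 members was 0.06, and that of all counted genes was 0.03.

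**Figure D2:**
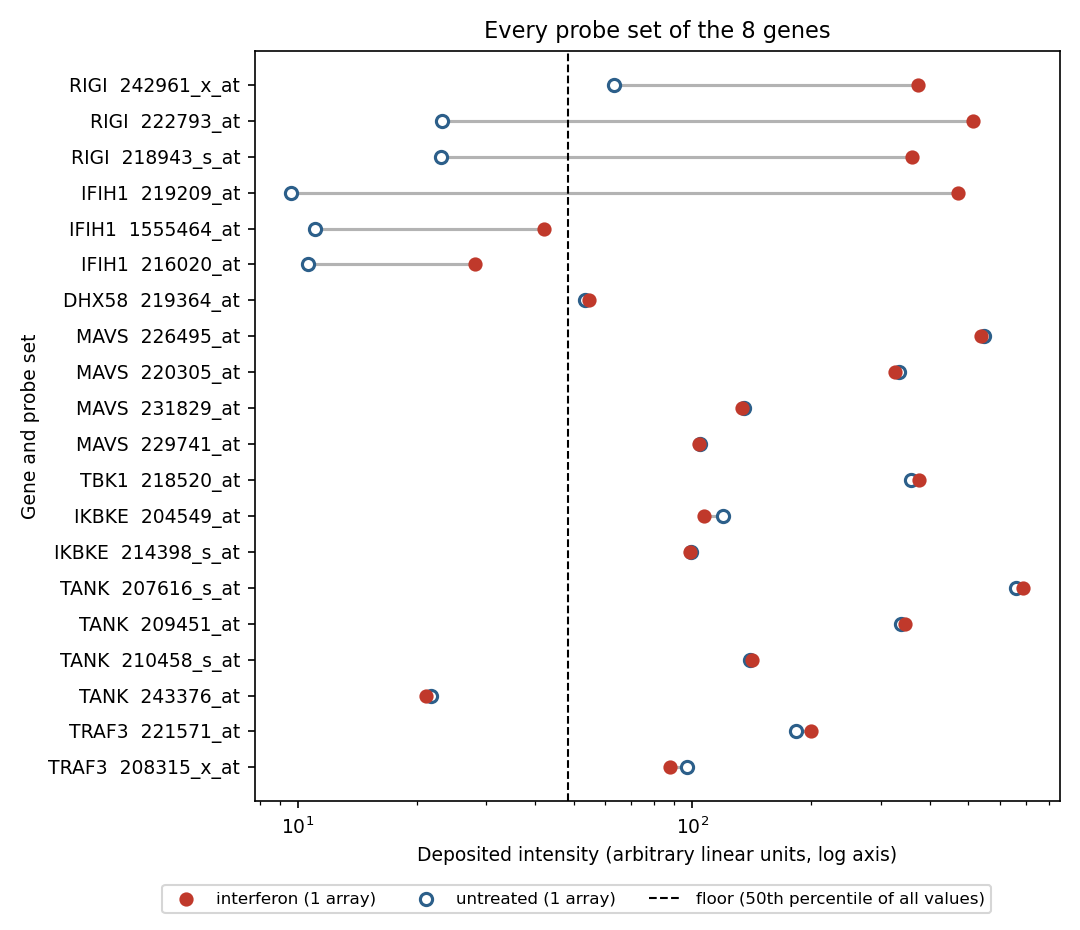
Deposited intensity (x axis, arbitrary linear units on a log axis) of each of the 20 probe sets with interferon (filled) and untreated (open), 1 array each, with the floor of 48.46 dashed. The RIGI and IFIH1 probe sets are spread far apart, whereas both arrays nearly coincide for the other 6 genes.

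RIGI, the receptor for RNA with a triphosphate end, was higher with interferon on all 3 of its probe sets. Probe set 242961_x_at had an intensity of 373.7 with interferon and 63.4 untreated, a ratio of 5.90-fold (log2 2.56), and was the only RIGI probe set above the floor on both arrays. Probe set 222793_at had 513.7 with interferon and 23.3, below the floor, untreated, which is at least 10.6-fold higher. Probe set 218943_s_at had 359.1 with interferon and 23.1, also below the floor, untreated, or at least 7.41-fold higher. The untreated array thus held RIGI below the floor by 2 probe sets and a little above it by the other. The suffix _x_at marks a probe set whose probes may also match other transcripts, and the RIGI ratio of 5.90-fold rests on that one. Whether such matches add to its untreated signal was not tested. The lower bounds from the other pair of probe sets both exceed it.

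With the 5.90-fold ratio, RIGI was 16th in the order of ratios among the 12742 genes that exceeded the floor on both arrays. The genes next to it in that order were USP18 (5.96-fold) and ZC3HAV1 (5.92-fold) above, and IFIT3 (5.79-fold) and PARP12 (5.27-fold) below. Likeness here is only the nearness of a ratio between 2 arrays. The order also depends on the probe set used for each gene. Counted probe sets of ZC3HAV1 ranged from log2 0.84 to 2.79, and those of IFIT3 from 2.53 to 3.83. Of these 12742 log2 ratios the central 95% extended from -0.29 to 0.30, and that spread across genes is not a replicate error.

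IFIH1, the receptor for long double-stranded RNA, lay under the floor without interferon on all 3 of its probe sets. Its probe set 219209_at had an intensity of 471.8 with interferon and 9.64 untreated, far below the floor, and was at least 9.74-fold higher (log2 at least 3.28). The other probe sets of IFIH1 were below the floor on both arrays, so they give no ratio. Probe set 1555464_at had 42.1 with interferon and 11.1 untreated, and 216020_at had 28.2 with interferon and 10.6 untreated. All 3 probe sets were thus brighter on the interferon array, but the call for IFIH1 rests on 219209_at alone.

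DHX58 encodes LGP2, a receptor that lacks the caspase recruitment domains of RIGI and IFIH1 and modulates their signalling. In many cell types it is itself induced by interferon. Its single probe set, 219364_at, had an intensity of 54.8 with interferon and 53.3 untreated, a ratio of 1.03-fold (log2 0.04). Both values lie just above the floor of 48.46, where a small change in transcript would be hard to see. With the floor at the 60th percentile the gene was not counted. Probe sets of like brightness, those within 0.25 of its mean log2 intensity, had a central 95% of log2 ratios between -0.33 and 0.32. The ratio of DHX58 lies inside that range, which does not show that the transcript was unaffected.

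**Figure D3:**
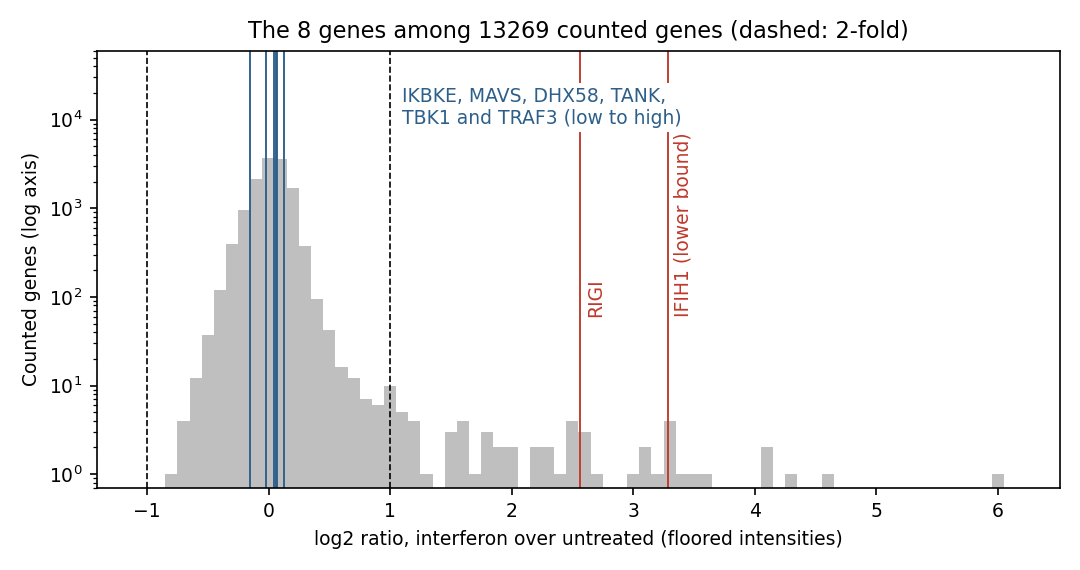
Histogram of log2 ratios, interferon over untreated, of 13269 counted genes (y axis, number of genes on a log axis), with vertical lines at the 8 members. RIGI at 2.56 and IFIH1 at a lower bound of 3.28 lie in the sparse right tail, and the other 6 lie between -0.16 and 0.13.

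MAVS, the mitochondrial adaptor on which both receptors converge, was measured above the floor on both arrays by all 4 of its probe sets. Probe set 226495_at had 539.1 with interferon and 546.5 untreated, and 220305_at had 326.1 with interferon and 333.9 untreated. Probe set 231829_at had 133.7 with interferon and 134.8 untreated, and 229741_at had 104.1 with interferon and 104.7 untreated. The log2 ratios, from -0.03 to -0.01, spanned 0.03, so that probe sets of very different brightness gave nearly the same value. With 4 counted probe sets, MAVS is the member read most often.

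TBK1, the kinase that phosphorylates IRF3 in most cells, had 375.0 with interferon and 358.4 untreated on its only probe set, 218520_at, a ratio of 1.05-fold (log2 0.07). IKBKE encodes the related kinase IKK-epsilon, which is inducible by cytokines in many cell types. Its probe set 204549_at had 107.0 with interferon and 119.2 untreated, 1.11-fold lower (log2 -0.16), the lowest ratio of the 8 members. Its other probe set, 214398_s_at, had 98.3 with interferon and 99.4 untreated (log2 -0.02). Among probe sets of like brightness to 204549_at the central 95% extended from -0.32 to 0.37 (log2), and -0.16 lies inside that range. Both IKBKE probe sets also lie within the intensities of the 8 markers of other cell types on each array. Whether background adds to the IKBKE signal was not tested.

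TANK, a scaffold that binds TBK1, IKBKE and TRAF3, had 3 counted probe sets, all slightly brighter with interferon. Probe set 207616_s_at had 688.3 with interferon and 660.0 untreated (log2 0.06). Probe set 209451_at had 345.7 with interferon and 336.7 untreated (log2 0.04), and 210458_s_at had 141.6 with interferon and 139.7 untreated (log2 0.02). These ratios are no larger than 0.06 and close to 0.04, the median over the 12742 genes that exceeded the floor on both arrays. The remaining probe set, 243376_at, was under the floor on both arrays, at 21.1 with interferon and 21.8 untreated.

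TRAF3, the ubiquitin ligase that links MAVS to the kinases, was the member whose probe sets differed in sign. Probe set 221571_at had 199.8 with interferon and 182.8 untreated, 1.09-fold higher (log2 0.13). Probe set 208315_x_at had 87.8 with interferon and 97.1 untreated, 1.11-fold lower (log2 -0.15). The probe sets of this gene were 0.27 apart, so TRAF3 has no settled direction. Over the 6 genes from DHX58 to TRAF3, 6 of the 13 counted probe sets were brighter with interferon and 7 were dimmer. All 13 log2 ratios lay inside the central 95% of probe sets of like brightness.

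The other genes of the pathway were described from 5 lists with 58 genes, of which 53 had a probe set of their own and 47 were counted. At least 2-fold higher were 3 of the 47, TRIM25, ZC3HAV1 and IFIT3, none was at least 2-fold lower, and 44 lay between, beside 0.43% of all counted genes higher and 0% lower. The median log2 ratio of the 47 was 0.13, beside 0.03 for all counted genes. The 47 genes were also brighter, with a median mean log2 intensity of 8.79 against 7.77 for all counted genes. Lowess scaling, which takes out a dependence on brightness, gave medians of 0.05 for the 47 and -0.01 for all counted genes, and quantile normalization gave 0.03 and -0.02. As the lists were drawn up with earlier results of these arrays known, their counts are descriptive.

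Among the 13 counted activators of the receptors, 2 were at least 2-fold higher, beside the same 0.43% of all counted genes. The list's median log2 ratio was 0.15, which like the other list medians stands beside 0.03 for all counted genes. TRIM25, a ubiquitin ligase that acts on RIGI, had 2180 with interferon and 341.3 untreated, a ratio of 6.39-fold, with 2 of 2 counted probe sets past 2-fold. ZC3HAV1, the zinc finger antiviral protein, of which a short form promotes RIGI signalling, had 2633 with interferon and 444.7 untreated. It passed 2-fold on 2 of 3 counted probe sets, the lowest being at log2 0.84. RNF135 (Riplet), another ligase of RIGI, was under the floor on both arrays, at 19.2 with interferon and 18.2 untreated. PPP1CA, a catalytic subunit of the phosphatase that dephosphorylates RIGI and IFIH1, had a log2 ratio of 0.15, and YWHAH, a 14-3-3 protein that escorts IFIH1, had the lowest of the list at -0.05.

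Of the 14 counted inhibitors of the receptors and of MAVS, none reached 2-fold, beside 0.43% of all counted genes higher and 0% lower. The list's median log2 ratio was 0.05. TNFAIP3 (A20), a ubiquitin-editing inhibitor, had the highest, with 134.8 with interferon and 104.2 untreated (log2 0.37, and 0.48 on its other probe set). NLRX1, a mitochondrial protein that binds MAVS, had the lowest, with 167.3 with interferon and 185.3 untreated (log2 -0.15, and 0.05 on its other probe set). PCBP2, which directs MAVS to degradation, had a log2 ratio of 0.15, and its 6 counted probe sets ranged from 0.10 to 0.43.

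Of 9 counted genes that work with MAVS at the mitochondrion, only IFIT3 was past 2-fold, beside 0.43% of all counted genes higher. IFIT3, which has been described as a bridge between MAVS and TBK1, had 437.4 with interferon and 75.6 untreated, a ratio of 5.79-fold, with 2 of 2 counted probe sets past 2-fold. The import receptor TOMM70 had a log2 ratio of 0.11 and the fusion protein MFN2 0.01. The list's median was 0.11.

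The 8 partners of the kinases, all counted, had a median log2 ratio of 0.20. None was past 2-fold, beside 0.43% of all counted genes higher and 0% lower. AZI2 (NAP1), an adaptor that binds TBK1 and IKBKE in the manner of TANK, had 358.0 with interferon and 228.5 untreated, or 1.57-fold higher (log2 0.65). All 4 of its counted probe sets were brighter with interferon, with log2 ratios from 0.26 to 0.78, whereas TANK itself stayed at or below 0.06. TAX1BP1, an adaptor that helps A20, had a log2 ratio of 0.23. IKBKG (NEMO), the regulatory subunit of the classical IKK complex, had the lowest at -0.11. The scaffold TBKBP1 and the kinase IKBKB enter as 0, although the 3 counted probe sets of IKBKB ranged from log2 0 to 0.21. On the probe set used, each had the same deposited value on both arrays, 133.97 and 82.75. How such ties arose is not given in the sources used here.

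At the output end, IRF3, the transcription factor that TBK1 phosphorylates, had 856.1 with interferon and 782.6 untreated (log2 0.13). RELA, the NF-kB subunit, had a log2 ratio of 0.07 and NFKB1 0.08. The products of the pathway were not detected above the floor: IFNB1 had 20.7 with interferon and 23.0 untreated, IFNL1 had 40.8 with interferon and 43.5 untreated, and IFNL2 had 16.3 with interferon and 18.1 untreated. IRF7, the interferon-inducible relative of IRF3, was likewise below the floor, at 39.8 with interferon and 41.1 untreated.

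**Figure D4:**
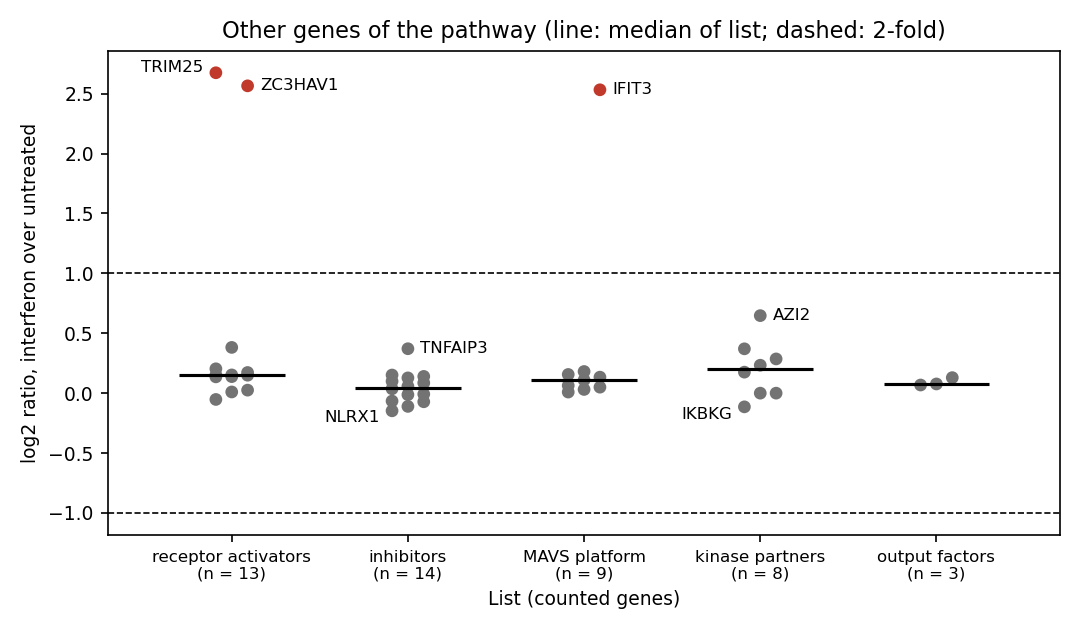
log2 ratio, interferon over untreated (y axis), of the 47 counted pathway genes in 5 lists; each point is a gene, bars are list medians and dashed lines mark 2-fold. TRIM25, ZC3HAV1 and IFIT3 lie above 2.5, AZI2 lies at 0.65, and the other 43 lie between -0.15 and 0.38.

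The scaling between the arrays bears on the small ratios. The 18 probe sets for hybridisation controls, spiked into both samples, each gave a higher intensity with interferon than untreated, at a median of 0.43 on the log2 scale. Centred on them, RIGI was at 2.13 and IFIH1 at 2.86, both still past 2-fold, while the other 6 members lay between -0.58 and -0.30, below 0 but at about the level of all genes, whose median moved to -0.39. The sign of a member other than RIGI and IFIH1 is thus not settled. Relative to the median of all genes the order of the members does not depend on this shift.

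**Figure D5:**
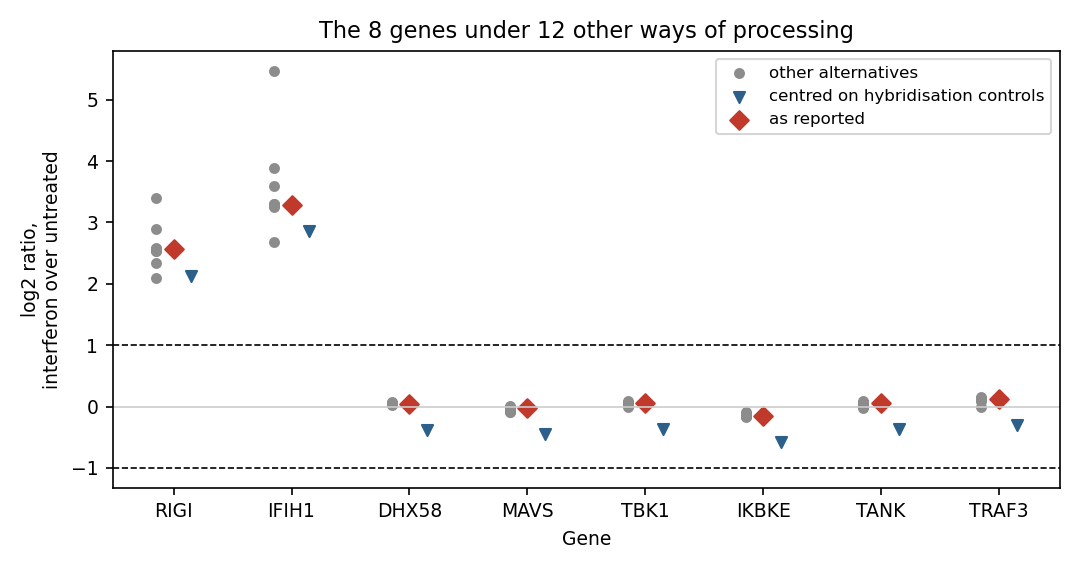
log2 ratio, interferon over untreated (y axis), of each member as reported (diamond), centred on the hybridisation controls (triangle) and under the other alternatives (circles), out of 12. No value of RIGI lies below 2.09 and, where it is counted, none of IFIH1 below 2.68, and no other member reaches 2-fold. All IFIH1 values are lower bounds, or pseudocount ratios against an untreated intensity below the floor, and the RIGI values of 2.34, 2.89 and 3.41 are lower bounds too.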

How the data were processed

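Huh-7 RNA was measured on 2 arrays, 1 with interferon and 1 untreated. Labelling with biotin started from 6 µg of total RNA, per the labels' protocols. Each deposited value is a linear intensity that the authors made with GCOS, Affymetrix's scanner software, per the submitters' processing notes. No version, background correction, probe summary or scaling is stated in the sources used here, and the scaling was kept. Of 54675 probe sets, 62 are controls, 41091 had 1 gene in the platform annotation, 1801 had several and 11721 none named there. Only those with 1 gene were used, with symbols updated through the gene ID and RefSeq.

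The floor, the choice of probe set and the 2-fold threshold are defined with the results, and 12 alternatives were run (Python 3.11.15, pandas 2.3.3, statsmodels 0.14.6). The procedure was run on simulated arrays in which changes were placed only in genes well above the floor when untreated. That check does not cover genes near or under the floor when untreated, as RIGI, IFIH1 and DHX58 were. The number of arrays limits the precision. Named genes are all members, all pathway genes past 2-fold, the highest, lowest and brightest of each list, and the neighbours of RIGI in the order of ratios. Others named, such as TBKBP1, IKBKB, RNF135, NFKB1, IRF7 and the interferons, were chosen after their values were seen. Members and lists were chosen with earlier results of these data known.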

Additional observations from a re-analysis of the deposited data

How the results depend on the processing

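RIGI and IFIH1 were the members at least 2-fold higher under 11 of the 12 alternatives. The exception chose each gene's probe set by brightness on the untreated array alone, which left IFIH1 below the floor on both arrays and uncounted, so that the count was 1. DHX58 was not counted with the floor at the 60th percentile. No member or pathway gene was at least 2-fold lower under any of them. TRIM25, ZC3HAV1 and IFIT3 were the pathway genes past 2-fold throughout, and AZI2 joined them at a threshold of 1.5-fold. With _x_at and _s_at probe sets left out, RIGI was at least 10.6-fold higher. The lower bound for IFIH1 moves with the floor, to a log2 ratio of at least 3.88 at the 40th percentile and at least 2.68 at the 60th. The other 6 members lay between -0.17 and 0.15 without the centring on hybridisation controls. That centring gave 44 genes at least 2-fold higher and 13 lower among all counted genes, against 57 and 0 with the deposited scaling. At 1.5-fold these were 100 and 11, and without the _x_at and _s_at probe sets 38 and 0. No paired analysis was possible because each condition has 1 array. Intensities near the floor, as for DHX58, limit what can be seen.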

Other observations

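The promoter motifs were also counted over all genes, as a description. Of the 57 genes at least 2-fold higher with interferon, 48 had a RefSeq window, and 30 of these (62.5%) held GAAANNGAAA, beside 389 of the 10683 counted genes with a window (3.64%). For GAAANGAAA the counts were 17 of 48 (35.4%) and 353 of 10683 (3.30%). For TTCNNNGAA they were 15 of 48 (31.2%) and 903 of 10683 (8.45%). IFIH1 is among the 30. RIGI had to be among the 17, because GAAANGAAA was added after its window had been read. The share of 35.4% thus includes RIGI and is only descriptive. Of the 58 pathway genes, 50 had a window. GAAANNGAAA was held by 6 of these (12%), GAAANGAAA by 4 (8%) and TTCNNNGAA by 5 (10%). Each motif was thus also held by pathway genes other than TRIM25, ZC3HAV1 and IFIT3. The 50 were drawn from all 58 listed genes, counted or not, so these other holders may include genes without a ratio. Among the pathway genes past 2-fold, IFIT3 held GAAANNGAAA in both of its 2 windows and also had a GAAANGAAA match. TRIM25 held GAAANGAAA in its window, and ZC3HAV1 held TTCNNNGAA but neither of the other motifs. The window of AZI2 held none of the 3.

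The deposited intensities contain exact steps. Leaving out controls, 2361 probe sets (4.32%) had the same value on both arrays, and another 896 differed by a whole number to within 2e-06. TRAF3 probe set 221571_at is 1 of the 896, with a difference of 17 units. How these steps arose is not given in the sources used here.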
